A study of Mus musculus with 8 samples.

Results

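The 9 genes described here are Krt5, Krt14, Krt15, Trp63, Col17a1, Itga6, Itgb4, Lama3 and Lamb3, which mark the basal layer of the bladder lining or build its attachment to the basement membrane. They were taken by gene symbol, all 9 are among the 38926 symbols of the files, and all 9 passed the filter on low counts that 16370 genes passed. The RNA came from whole mouse bladder. NeMO names a surgical partial obstruction of the bladder outlet that spares the nerves, and 4 libraries carry that label. The other 4 come from Sham-operated mice. The labels give no strain, sex, age or time after surgery and do not tie each library to its own animal, so p-values measure only the spread between these samples.

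The urothelium is the stratified lining of the bladder. Its basal cells carry a keratin network of Krt5 paired with an acidic keratin such as Krt14 or Krt15, and the transcription factor p63, encoded by Trp63, keeps the basal programme of many stratified epithelia. Basal cells are held down by hemidesmosomes, in which integrin alpha 6 beta 4 (Itga6 and Itgb4) and the transmembrane collagen XVII (Col17a1) bind laminin-332 outside the cell and the keratins inside it. Lama3 and Lamb3 encode the alpha and beta chains of laminin-332. Itga6 and Itgb4 are also made by endothelial and Schwann cells, so their counts in whole tissue are not those of basal cells alone.

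Of the 9 genes, 8 were higher in NeMO by the fitted difference and 1, Krt5, was lower, and none passed edgeR's quasi-likelihood test after Benjamini-Hochberg adjustment over all genes (threshold 0.05), which 0.0733% of all genes passed. Col17a1 stood out in size, at 2.24-fold the Sham level. Col17a1 and Itga6 were the members whose NeMO and Sham libraries did not overlap, both with NeMO higher, beside 4.39% of all genes tested. At an unadjusted p under 0.05 there were 3 higher members (Col17a1, Itga6 and Lama3) and 0 lower, beside 9.38% of all genes in the higher and 9.14% in the lower direction. DESeq2's Wald test on the same libraries called 2, Col17a1 and Itga6, beside 3.6% of the genes it could adjust called higher and 2.72% called lower. Over all genes tested, 48.3% had a log2 fold change above 0 and 51.7% below it. The median of the 9 was 0.36 on that scale, against −0.01 over all genes tested. Without NeMO replicate 3 the median of the 9 was 0.09, with 6 higher and 3 lower, and without NeMO replicate 1 it was 0.47, with 9 higher. Because bulk tissue was sequenced, a change in the number of basal cells and a change in RNA per cell cannot be told apart.

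Library totals ran from 27212499 to 36375313 counts, so every member other than Krt14 rested on at least 906 reads in each library. The submitted file names carry a mark that splits the libraries into 2 sets, used here as batches. The labels do not explain the mark. NeMO replicates 1 and 3 stand with Sham replicates 1 to 3 in batch 1, and NeMO replicates 2 and 4 with Sham replicate 4 in batch 2. NeMO replicate 3 stood apart in several stromal genes, with a summed level of the 10 fibroblast markers of 18964 CPM against 8589 to 12536 CPM in the other NeMO libraries and 9559 to 12416 CPM in Sham. Col1a1 (5092 CPM) and Col1a2 (7287 CPM) made up most of that sum. These and Pdgfra, Dcn, Lum, Col6a2 and Mfap5 were highest in NeMO replicate 3 among the 8 libraries. Fbln1 (769 CPM), Dpt (143 CPM) and Pi16 (264 CPM) were lowest there. NeMO replicate 3 was also the library with the highest Col17a1, Itga6, Lama3, Krt14 and Krt15. Log2 fold changes that leaving out 1 NeMO library moved most are also given without it. The part of stromal content in those results was not tested. CPM are counts scaled by TMM-corrected library size, and every log2 fold change compares NeMO with Sham (above 0 where NeMO was higher) with batch in the model.

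**Figure D1:**
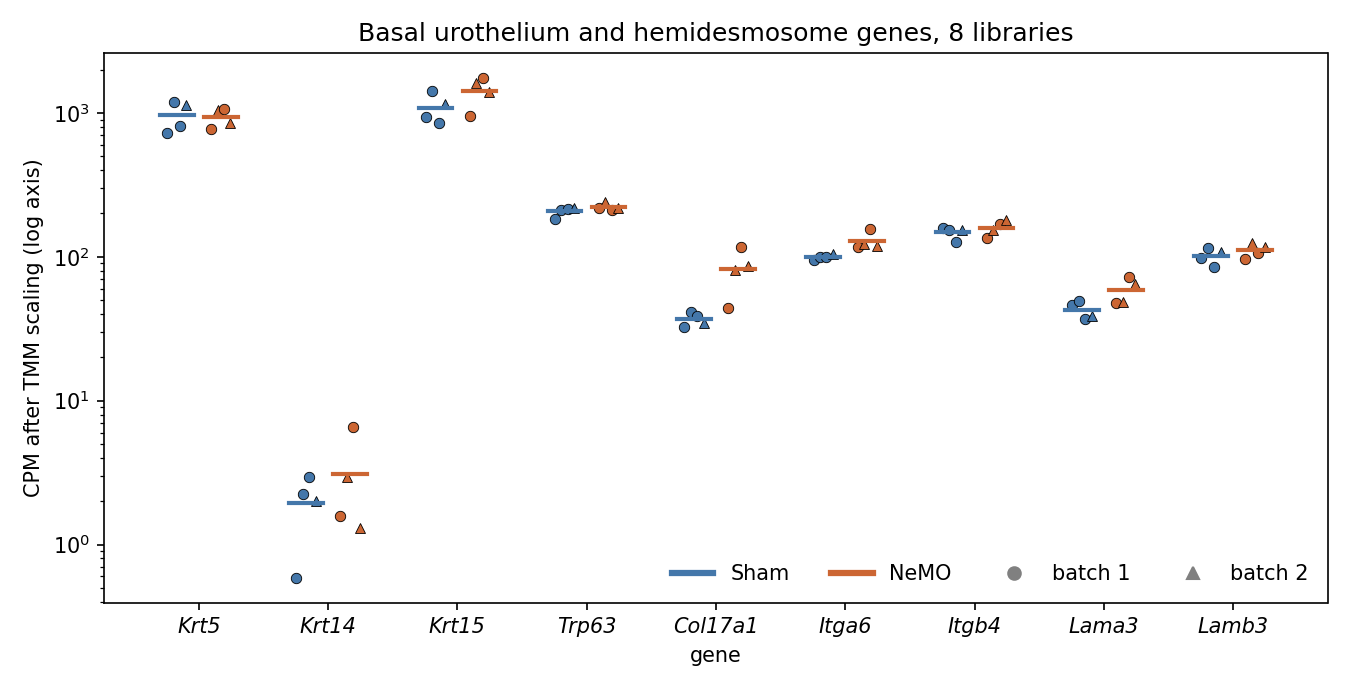
CPM on a log axis (vertical) for the 9 genes (horizontal) in 4 Sham and 4 NeMO libraries, with circles for batch 1, triangles for batch 2 and a horizontal line at each group mean. Col17a1 and Itga6 are the genes whose 4 NeMO points all lie above the 4 Sham points, and Krt14 lies far below the other genes.

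Neither Krt5, a basal keratin, nor Col17a1, the member with the largest fold change, passed edgeR's test with all libraries. Stretches of their 2 promoters are shown. Both come from the RefSeq promoter table on GRCm38.p6 (the assembly that mm10 names), which held 4 of the 9 genes (Krt5, Krt14, Col17a1 and Lamb3). Each is written 5′ to 3′ on the minus strand, the strand of the gene, and ends before the transcript begins. The Krt5 stretch is chr15:101712906-101713155 (250 bases) and the Col17a1 stretch is chr19:47692095-47692292 (198 bases). Capitals mark matches to the motifs searched.
Krt5: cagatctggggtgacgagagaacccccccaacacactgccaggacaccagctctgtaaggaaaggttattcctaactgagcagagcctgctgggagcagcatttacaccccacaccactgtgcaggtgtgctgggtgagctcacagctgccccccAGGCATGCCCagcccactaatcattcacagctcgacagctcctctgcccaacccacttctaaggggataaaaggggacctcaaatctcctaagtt
Col17a1: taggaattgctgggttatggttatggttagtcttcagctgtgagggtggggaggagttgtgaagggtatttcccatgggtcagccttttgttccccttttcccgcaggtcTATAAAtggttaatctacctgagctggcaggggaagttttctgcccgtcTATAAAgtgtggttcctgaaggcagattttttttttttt

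The search covered both strands and 4 motifs: the p53-family half-site (the letters p63 also reads), AP-1 (TGANTCA), a Grainyhead-like site (AACNGGTT) and the TATA box (TATAAA). The Krt5 stretch runs up to the RefSeq start, and the Col17a1 stretch stops 52 bases before it, where the GENCODE gene begins. The Krt5 stretch held 1 p53-family half-site, which begins 95 bases before the RefSeq start, and 7.13% of all 32851 promoter windows cut to the same 250 bases held one. The Col17a1 stretch held 2 TATA box matches, beginning 140 and 91 bases before the RefSeq start, and 9.08% of all windows cut to 198 bases held at least 1. Neither stretch matched AP-1 (in 6.75% of windows of 250 bases and 5.5% of windows of 198 bases) or the Grainyhead-like letters (1.79% and 1.4%). The Krt5 stretch held no TATAAA (12.4% of windows) and the Col17a1 stretch no p53-family half-site (5.79%). None of the motifs overlapped another in these stretches, and a match is a description of the letters only.

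The basal keratins differed among themselves more than between the groups. Krt5, the type II keratin of basal cells, measured 772, 1041, 1068 and 854 CPM in NeMO replicates 1 to 4 and 729, 1190.5, 810.2 and 1138 CPM in Sham replicates 1 to 4. The groups overlapped, with means of 934 ± 144 and 967 ± 231 CPM (SD, n = 4 each). Its log2 fold change was −0.08 (SE 0.18, edgeR adjusted p = 0.845), and its sign changed with several of the settings tried.

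Krt15, a type I keratin of basal cells, measured 951, 1616, 1749 and 1396 CPM in NeMO and 940.0, 1419, 845 and 1146 CPM in Sham. NeMO replicates 2 and 3 lay above every Sham library, while NeMO replicates 1 and 4 lay within the Sham range. The means were 1428 ± 350 and 1087 ± 254 CPM (SD, n = 4 each), and the log2 fold change of 0.36 (SE 0.23) did not pass (edgeR adjusted p = 0.436). It was 0.10 without NeMO replicate 3, 0.57 without NeMO replicate 1 and 0.52 without Sham replicate 2, and passed in none of these.

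Krt14, the usual partner of Krt5 in the basal cells of skin, was low. It had 1.58, 2.95, 6.52 and 1.30 CPM in NeMO and 0.589, 2.25, 2.96 and 2.01 CPM in Sham, from 20 to 224 reads per library. There were 0.00314 ± 0.00206 Krt14 reads per Krt5 read in NeMO and 0.00205 ± 0.00119 in Sham (SD, n = 4 each). Its log2 fold change of 0.72 (SE 0.61, edgeR adjusted p = 0.572) became −0.12 without NeMO replicate 3.

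Part of each keratin transcript is shared with relatives. Of the words of 50 bases in the longest Krt14 transcript, 14.4% also occur in Krt16 or Krt17, and 12.2% of those of Krt5 occur in other genes, among them Krt6a and Krt6b. For Krt15 the share was 0.666%. Itga6 shares 6.5% of such words with the gene model Gm29397, and 197 exon bases of Lama3 overlap Gm29200 on the other strand. How reads that map to several places were counted is not stated, so the levels of these genes are uncertain to that extent. Krt17, Krt6a and Krt16, keratins of activated or wounded epithelium, were at or under 1.29 CPM in every library.

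Trp63 was the steadiest of the 9. It measured 218, 239, 210.5 and 219 CPM in NeMO and 182, 212, 214 and 218 CPM in Sham, with means of 222 ± 12.1 and 207 ± 16.5 CPM (SD, n = 4 each). Sham replicate 1 was the low library and the other 7 lay between 210.5 and 239 CPM. The log2 fold change was 0.08 (SE 0.08, edgeR adjusted p = 0.643) and −0.02 once length and GC content of the transcripts were corrected for. Counts per symbol do not separate the long and the N-terminally shortened p63 forms.

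Of 12 genes known as p63 targets in stratified epithelia, 6 were higher and 6 lower, at a median log2 fold change of −0.0062. By edgeR 0 passed after adjustment, 1 was higher and 2 were lower at an unadjusted p under 0.05, and DESeq2 called 0. Over all genes tested, 9.38% were higher and 9.14% lower at that unadjusted p. The log2 fold change was −0.28 (SE 0.09) for the epithelial 14-3-3 gene Sfn and 0.28 (SE 0.10) for Fermt1, which encodes the integrin activator kindlin-1. For the homeobox gene Dlx3 it was −1.92 (SE 0.79) at a level of 0.486 ± 0.199 CPM in Sham and 0.123 ± 0.155 CPM in NeMO.

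Of the 3 transmembrane hemidesmosome genes, Col17a1 and Itga6 separated the groups and Itgb4 did not. Col17a1 measured 43.9, 81.3, 117 and 86.9 CPM in NeMO replicates 1 to 4 and 32.5, 41.3, 38.7 and 34.4 CPM in Sham replicates 1 to 4. NeMO replicates 2 to 4 lay far above the Sham libraries, and NeMO replicate 1 was just above the highest Sham library. The means were 82.2 ± 29.9 and 36.7 ± 4.00 CPM (SD, n = 4 each).

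The log2 fold change of Col17a1 was 1.17 (SE 0.29, unadjusted p = 0.00473, edgeR adjusted p = 0.126), higher in 4 of 4 NeMO libraries than in any Sham library. DESeq2 gave 1.17 with an adjusted p of 3.15e-04. NeMO replicates 1 and 3 moved the value: without replicate 1 it was 1.48 (edgeR adjusted p = 0.00134) and without replicate 3 it was 0.73 (edgeR adjusted p = 0.278). It was 1.102 in batch 1 alone and 1.30 in batch 2 alone. Over all alternatives the adjusted p ran from 3.15e-04 to 0.469.

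Itga6 encodes the alpha chain of the hemidesmosome integrin and measured 116, 123, 157 and 118 CPM in NeMO and 95.0, 99.8, 99.1 and 104 CPM in Sham. The Sham libraries lay close together, and every NeMO library was above them, with NeMO replicate 3 far above the others. The means were 129 ± 19.1 and 99.5 ± 3.78 CPM (SD, n = 4 each). That gave a log2 fold change of 0.39 (SE 0.10, unadjusted p = 0.00394, edgeR adjusted p = 0.121, DESeq2 adjusted p = 0.0285). It was 0.47 without NeMO replicate 1 (edgeR adjusted p = 0.0433), 0.23 without NeMO replicate 3 and 0.22 in batch 2 alone. Over all alternatives the adjusted p ran from 0.0285 to 0.635.

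Itgb4, the beta chain that joins Itga6 in the hemidesmosome, did not separate. It measured 136, 153, 170.1 and 179 CPM in NeMO and 159, 154, 127 and 153 CPM in Sham, and NeMO replicate 1 lay below 3 of the 4 Sham libraries. The means were 160 ± 19.3 and 148 ± 14.5 CPM (SD, n = 4 each), with a log2 fold change of 0.08 (SE 0.11, edgeR adjusted p = 0.731). It was −0.0043 without NeMO replicate 3. An antisense long noncoding gene, B230344G16Rik, shares 537 exon bases with Itgb4 on the other strand, and reads of the pair cannot be told apart where counting ignored strand.

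Of the laminin-332 genes, Lama3 had a log2 fold change of 0.48 and Lamb3 one of 0.08, and neither passed. Lama3, the alpha chain, measured 47.8, 48.7, 72.1 and 65.0 CPM in NeMO and 46.1, 49.5, 37.1 and 38.8 CPM in Sham. NeMO replicates 3 and 4 lay above every Sham library, while NeMO replicates 1 and 2 lay among them. The SE of its log2 fold change was 0.16 (unadjusted p = 0.0164, edgeR adjusted p = 0.180). The value was 0.64 without NeMO replicate 1 (edgeR adjusted p = 0.0439), 0.32 without NeMO replicate 3 and 0.35 with length and GC corrected for. Over all alternatives its adjusted p ran from 0.0439 to 0.532.

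Lamb3, the beta chain, measured 96.4, 126, 107 and 117 CPM in NeMO and 97.6, 116, 85.5 and 108 CPM in Sham, with means of 111 ± 12.7 and 102 ± 13.1 CPM (SD, n = 4 each). The ranges overlapped and the log2 fold change was 0.08 (SE 0.10, edgeR adjusted p = 0.716). Lamb3 thus did not pass in either tool, and Lama3 passed in neither with all libraries (DESeq2 adjusted p = 0.0633).

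**Figure D2:**
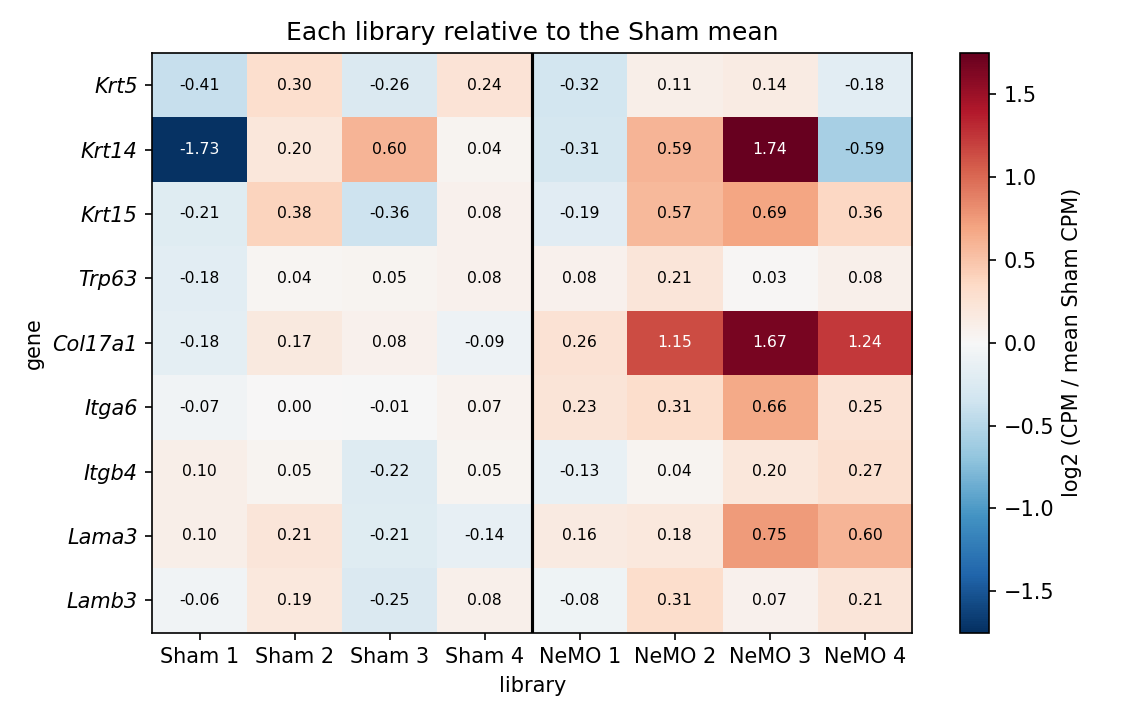
Colour and printed value give the log2 ratio of each library's CPM to the Sham mean, for the 9 genes (rows) in 4 Sham and 4 NeMO libraries (columns). The Col17a1 row reaches 1.15, 1.67 and 1.24 in NeMO replicates 2 to 4 and 0.26 in NeMO replicate 1, and the Trp63 row stays between −0.18 and 0.21.

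Beside the members, 10 other genes of hemidesmosome anchoring and of the keratin family were followed. Of these, 8 were higher and 2 lower, and the median log2 fold change was 0.17. The 8 include Krt17 (0.18, SE 0.76) and Krt6a (0.03, SE 0.59), which stayed at or under 1.29 CPM in every library. After adjustment over all genes 0 passed in edgeR. At an unadjusted p under 0.05 there were 4 higher and 0 lower, beside 9.38% and 9.14% of all genes. The 4 were Dst, Col7a1, Fermt1 and Itgb1, of which Itgb1 was named after its value was seen. DESeq2 called 2 of the 10 higher, Dst and Col7a1, beside 3.6% of the genes it could adjust.

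Dst encodes dystonin, whose epithelial form is a plakin of the inner hemidesmosome plaque and whose other forms belong to muscle and nerve. It measured 481, 528, 527 and 567 CPM in NeMO and 396, 447, 381 and 372 CPM in Sham, without overlap (log2 fold change 0.39, SE 0.10, edgeR adjusted p = 0.106, DESeq2 adjusted p = 0.00338). The other plakin of the plaque, plectin (Plec), is widely expressed and measured 595 ± 79.9 CPM in NeMO and 553 ± 77.6 CPM in Sham (log2 fold change 0.08, SE 0.13). The tetraspanin gene Cd151, a partner of laminin-binding integrins, had a log2 fold change of −0.07 (SE 0.13).

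Col7a1 encodes the collagen of the anchoring fibrils beneath the basement membrane and is made by both epithelium and fibroblasts. It measured 12.7, 17.0, 38.2 and 17.4 CPM in NeMO and 11.1, 11.9, 12.1 and 9.12 CPM in Sham. All 4 NeMO libraries were above Sham, NeMO replicate 1 by little and NeMO replicate 3 by most (log2 fold change 1.05, SE 0.30, edgeR adjusted p = 0.145, DESeq2 adjusted p = 0.00858). Without NeMO replicate 3 the log2 fold change of Col7a1 was 0.49, and without NeMO replicate 1 it was 1.36 (edgeR adjusted p = 0.00986). Dst also passed without NeMO replicate 1 (0.46, edgeR adjusted p = 0.0429). Fermt1 measured 39.2 ± 3.15 CPM in NeMO and 32.0 ± 3.38 CPM in Sham.

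**Figure D3:**
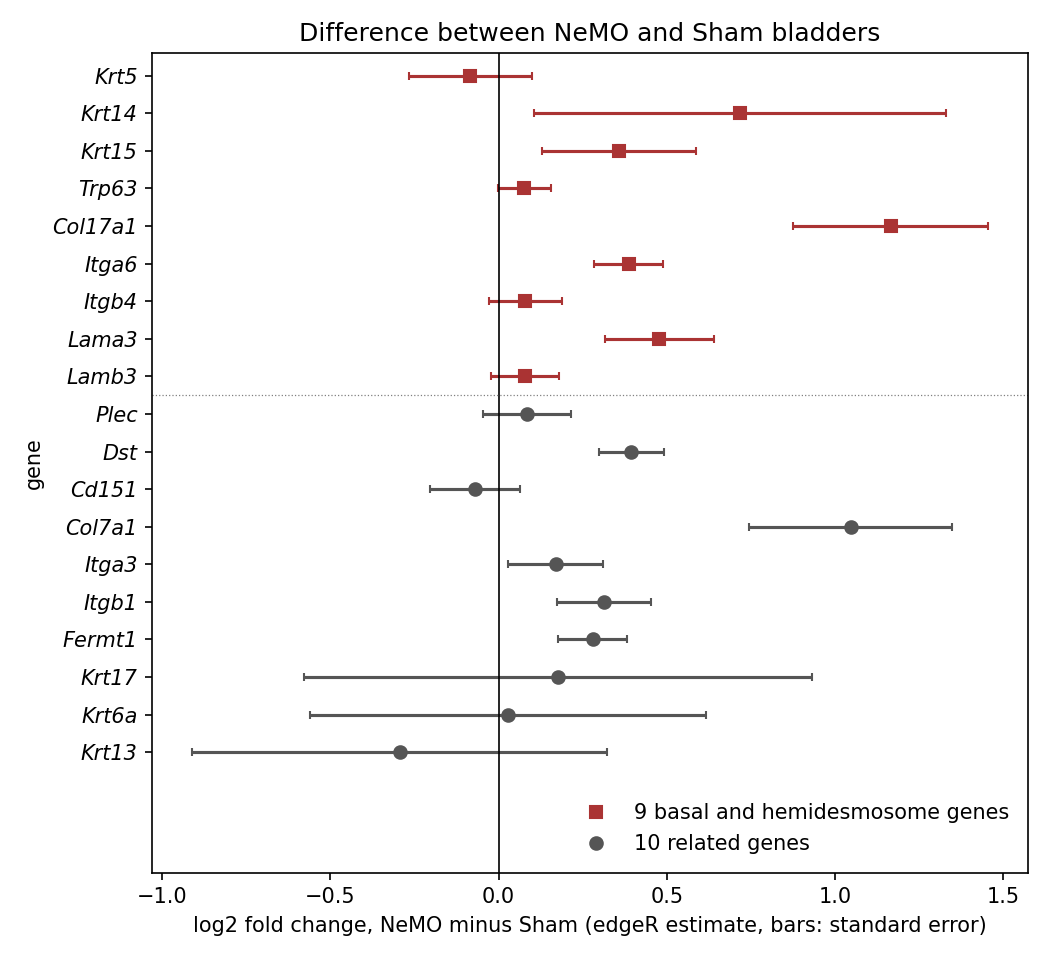
Points give the edgeR log2 fold change (NeMO minus Sham, horizontal) with its standard error as bars, for the 9 genes (red squares, above the dotted line) and 10 related genes (grey circles). Col17a1 at 1.17 and Col7a1 at 1.05 lie farthest from 0, while Krt5, Trp63, Itgb4 and Lamb3 lie within 0.1 of it.

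The place of each gene is given on mm10, 1-based, from GENCODE M21, and all are protein-coding genes whose counts resolve no exon or isoform. Krt15 (ENSMUSG00000054146.8) spans 100131758 to 100135928 of chromosome 11 and Krt14 spans 100203162 to 100207548 of the same keratin cluster, both on the minus strand. Krt5 lies in the type II cluster on chromosome 15 (101707070 to 101712898, minus strand). Col17a1 (ENSMUSG00000025064.15) lies on chromosome 19 (47646344 to 47692094, minus strand), Itga6 (ENSMUSG00000027111.15) on chromosome 2 (71745616 to 71858416) and Itgb4 on chromosome 11 (115974709 to 116008412). Trp63 lies on chromosome 16 (25683763 to 25892102), Lama3 on chromosome 18 (12333819 to 12583013) and Lamb3 on chromosome 1 (193207699 to 193343878).

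Levels were set in order per kilobase of the longest annotated transcript. In Sham, Krt15 had 640 ± 150 CPM per kb, followed by Krt5 with 440.1 ± 105 CPM per kb. Trp63 followed at 38.5 ± 3.07, Itgb4 at 23.9 ± 2.33, Itga6 at 23.1 ± 0.877 and Lamb3 at 20.9 ± 2.69 CPM per kb (SD, n = 4 each). Col17a1 had 6.58 ± 0.717, Lama3 4.07 ± 0.556 and Krt14 1.15 ± 0.586 CPM per kb. The keratins Krt15 and Krt5 were thus more than 10 times above every other member on this scale.

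Over all 8 libraries the ranges of Krt15 (497 to 1029 CPM per kb) and Krt5 (332 to 542) overlapped, as did those of Itgb4 (20.5 to 28.9), Itga6 (22.04 to 36.5) and Lamb3 (17.6 to 25.8). Trp63, at 34.0 to 44.5 CPM per kb, overlapped with Itga6 through NeMO replicate 3. Col17a1 (5.82 to 20.9) reached into the ranges of Lama3 (3.52 to 6.84), Lamb3 and Itgb4, and Krt14 (0.347 to 3.84) into that of Lama3. The order depends on the length used: per kilobase of all annotated exons together, Itga6 in Sham had 11.03 ± 0.419 CPM per kb and stood below Lamb3 at 15.4 ± 1.98 CPM per kb.

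Ratios between genes within a library do not depend on the scaling between libraries. Of these, 7 were compared with two-sided exact permutation tests, which took no account of batch. With 4 against 4 the smallest p is 0.0286, and after Benjamini-Hochberg adjustment over 7 ratios none passed 0.05. A single ratio at that p adjusts to 0.2, so no ratio could pass by itself. Col17a1 reads per Itgb4 read were 0.324, 0.532, 0.686 and 0.484 in NeMO and 0.204, 0.268, 0.305 and 0.225 in Sham, without overlap. The mean log2 ratio of Col17a1 to Itgb4 was −1.03 ± 0.45 in NeMO and −2.01 ± 0.26 in Sham (SD, n = 4 each, difference 0.98, exact permutation p = 0.0286, the smallest possible, adjusted p = 0.2).

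Krt15 to Krt5 was the next ratio by p. There were 1.23, 1.55, 1.64 and 1.63 Krt15 reads per Krt5 read in NeMO and 1.29, 1.19, 1.04 and 1.01 in Sham. NeMO replicates 2 to 4 lay above every Sham library and NeMO replicate 1 lay within their range (difference in mean log2 ratio 0.42, exact permutation p = 0.0571, adjusted p = 0.2). Krt15 outnumbered Krt5 in all 8 libraries.

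Within the integrin pair, Itga6 reads per Itgb4 read averaged 0.813 ± 0.112 in NeMO and 0.676 ± 0.0775 in Sham (SD, n = 4 each), with overlap (difference in mean log2 ratio 0.26, exact permutation p = 0.0857, adjusted p = 0.2). Lama3 reads per Lamb3 read averaged 0.528 ± 0.120 and 0.424 ± 0.0467 (difference 0.30, exact permutation p = 0.171, adjusted p = 0.3). Against Cdh1, the E-cadherin gene of all epithelial cells, neither Krt5 (difference −0.07, exact permutation p = 0.743) nor Itgb4 (0.06, exact permutation p = 0.714) moved beyond the spread between libraries.

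**Figure D4:**
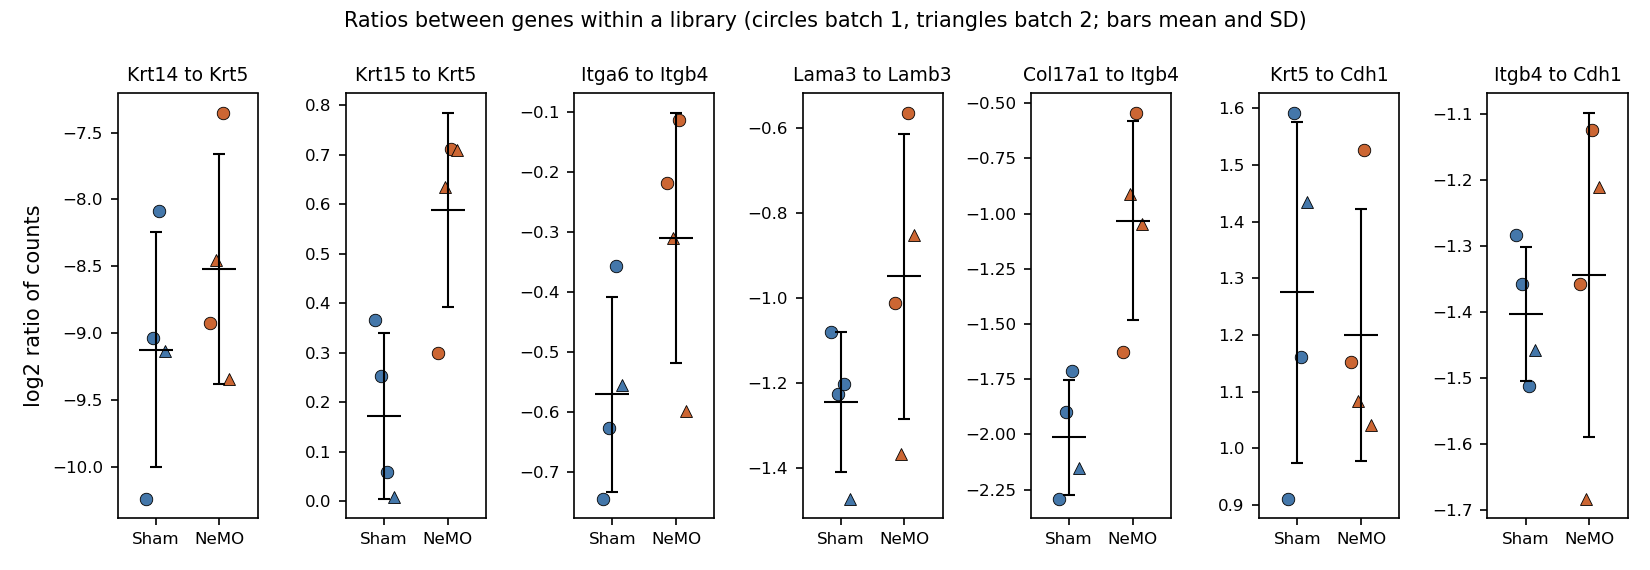
Each panel plots the log2 ratio of 2 genes' counts within a library (vertical, separate scales) for 4 Sham and 4 NeMO libraries, with circles for batch 1, triangles for batch 2 and bars for the mean and SD. In the Col17a1 to Itgb4 panel all 4 NeMO libraries lie above the 4 Sham libraries, while the other 6 panels overlap.

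The 9 genes shared a pattern across the libraries only in part. After removal of the batch means, Pearson's r across the 8 libraries was highest between Col17a1 and Itga6 (0.92) and between Col17a1 and Lama3 (0.88). It was 0.17 between Col17a1 and Krt5, and below 0 only for Trp63 with Itgb4 (−0.44) and Krt14 with Itgb4 (−0.04). Each member's r with the mean standardized profile of the 9, of which it is a part, lay between 0.45 (Trp63) and 0.97 (Krt15). These values describe 8 libraries that differ in group, in levels of stromal genes and in depth, and carry no test. Measured by Pearson's r with the mean standardized profile of the 9 over the 8 libraries, the 6 nearest of 11344 other genes of at least 5 CPM were Gal3st1 (0.97), Pik3r3 (0.96), Pkp1 (0.96), Golga7 (0.96), Gfpt1 (0.96) and Lxn (0.95). Their Spearman values ran from 0.86 to 0.98. Without NeMO replicate 3 and Sham replicate 1, the libraries at the ends of the profile, r ran from 0.89 to 0.98. After adjustment edgeR called 0 of the 6, of which Pkp1 had an unadjusted p under 0.05, and DESeq2 called Pkp1. The ranking kept the difference between the groups. The members' profile was −0.35, 0.53, 1.26 and 0.28 in NeMO replicates 1 to 4 and −0.90, 0.34, −0.77 and −0.38 in Sham replicates 1 to 4. Fold changes above 0 in these 6 genes are therefore favoured by how they were picked and are no separate result.

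Among those 6, Pkp1, a desmosome plaque gene of the plakophilin family, had the largest fold change. It measured 32.4 ± 11.6 CPM in NeMO and 19.7 ± 3.34 CPM in Sham (log2 fold change 0.76, SE 0.26, adjusted p = 0.189 in edgeR, DESeq2 adjusted p = 0.0343), and its log2 fold change was 0.39 without NeMO replicate 3. Leaving out NeMO replicate 1 gave 1.02 (edgeR adjusted p = 0.0277). Gal3st1, which encodes a sulfotransferase that makes sulfatide, measured 8.63 ± 2.59 and 5.60 ± 2.07 CPM (0.57, SE 0.32). The other 4 had log2 fold changes of 0.18 for Pik3r3, 0.09 for Golga7, 0.11 for Gfpt1 and 0.18 for Lxn. Without NeMO replicate 3 the values were 0.21 for Gal3st1, 0.06 for Pik3r3, 0.02 for Golga7, 0.03 for Gfpt1 and 0.07 for Lxn.

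Desmosomes join epithelial cells to each other through the same keratins. Of 9 desmosome genes tested, 7 were higher and 2 lower (median log2 fold change 0.19). After adjustment edgeR called 0, while 2 were higher at an unadjusted p under 0.05 (Pkp1 and Pkp2), beside 9.38% of all genes. DESeq2 called 1 higher (Pkp1), beside 3.6% of the genes it could adjust. Pkp2 measured 43.1 ± 5.85 CPM in NeMO and 35.6 ± 1.76 CPM in Sham (log2 fold change 0.30, SE 0.10), and desmoplakin, Dsp, had a log2 fold change of 0.23 (SE 0.13).

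Other genes of basal and progenitor urothelium split evenly, with 8 of 16 higher, 8 lower and a median log2 fold change of −0.03. In edgeR 0 passed after adjustment and 3 higher and 2 lower had an unadjusted p under 0.05, beside 9.38% and 9.14% of all genes. DESeq2 called 1 higher, Egfr, the epidermal growth factor receptor, beside 3.6% of the genes it could adjust. Egfr measured 57.2, 57.3, 80.9 and 61.3 CPM in NeMO and 49.9, 51.3, 50.6 and 47.8 CPM in Sham, without overlap (log2 fold change 0.40, SE 0.11, edgeR adjusted p = 0.122, DESeq2 adjusted p = 0.0318). Egfr fell short without NeMO replicate 3 (log2 fold change 0.24) and passed without NeMO replicate 1 (0.51, edgeR adjusted p = 0.0284). Bcam, a receptor for laminin with the alpha 5 chain, had a log2 fold change of −0.25 (SE 0.08).

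Most genes listed as markers of the layers above the basal cells had log2 fold changes below 0. Of 16 intermediate and superficial urothelium markers, 15 were lower and 1 higher and the median log2 fold change was −0.29. Some lay near 0, among them Grhl3 (−0.04), Elf3 (−0.05), Gata3 (−0.08) and the 1 higher gene, Foxa1 (0.03). In edgeR 0 passed after adjustment and 8 lower had an unadjusted p under 0.05, beside 9.14% of all genes. DESeq2 called 6 lower, beside 2.72% of the genes it could adjust. Of all genes tested, 51.7% had a log2 fold change below 0. The superficial keratin Krt20 measured 96.4 ± 20.8 CPM in NeMO and 149 ± 35.2 CPM in Sham (log2 fold change −0.75, SE 0.16, adjusted p = 0.0899 in edgeR). For the uroplakin gene Upk2 the log2 fold change was −0.43 (SE 0.09) and for the cell surface gene Psca it was −0.56 (SE 0.12). The difference between the basal and the superficial genes was not itself tested.

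General epithelial markers overlapped between the groups in their summed level. Of 13, 3 were higher and 10 lower, the median log2 fold change being −0.10, and their summed level was 1935 to 2740 CPM in NeMO and 2081 to 2576 CPM in Sham. Epcam measured 102 ± 10.5 and 86.7 ± 14.3 CPM (log2 fold change 0.18, SE 0.10) and Cdh1 406 ± 63.2 and 391 ± 24.1 CPM (−0.02, SE 0.09). The 3 with the smallest p had log2 fold changes below 0, Cldn7 at −0.29 (SE 0.08), Rab25 at −0.26 (SE 0.09) and Prom2 at −0.18 (SE 0.09). After adjustment neither edgeR nor DESeq2 called any of the 13. In edgeR 0 higher and 2 lower had an unadjusted p under 0.05, beside 9.38% and 9.14% of all genes.

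Squamous and wound keratinocyte genes gave 3 higher and 5 lower of 8 tested, at a median log2 fold change of −0.08, and 3 of the list of 15 (Sprr1b, Sprr2d and Flg) had 0 reads in every library. The cornified envelope gene Sprr1a measured 821 ± 206 CPM in NeMO and 1091 ± 102 CPM in Sham (log2 fold change −0.54, SE 0.13, adjusted p = 0.106 in edgeR, DESeq2 adjusted p = 0.00191). Krtdap had a log2 fold change of −1.19 (SE 0.60) and Krt1 one of 0.36 (SE 0.20). Krtdap was low, at 2.39 ± 2.03 CPM in NeMO and 5.50 ± 1.61 CPM in Sham (SD, n = 4 each), from 18 to 196 reads per library. Its log2 fold change was −2.52 without NeMO replicate 1 (edgeR adjusted p = 0.0140), where 652 of 16621 genes passed. Without NeMO replicate 3 it was −0.82. Sprr1a was the 1 gene of the list with an unadjusted p under 0.05, beside 9.14% of all genes lower at that p. After adjustment edgeR called 0 of the list.

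Markers of other cells that express Itga6 or Itgb4 were read beside them. The 10 endothelial markers were 9 higher and 1 lower (median log2 fold change 0.14, 0 at an unadjusted p under 0.05), and their summed level was 437 to 708 CPM in NeMO, highest in replicate 3, and 482 to 574 CPM in Sham. On the log2 fold change scale Pecam1 stood at 0.03 (SE 0.13), Flt1 at 0.21 (SE 0.10), Egfl7 at 0.24 (SE 0.16) and Cdh5 at 0.35 (SE 0.25). Without NeMO replicate 3 these 4 were −0.13, 0.12, 0.06 and 0.02. The 9 Schwann cell markers were 1 higher and 8 lower, the median log2 fold change being −0.43. At an unadjusted p under 0.05, 1 was lower (Fabp7), beside 9.14% of all genes. Of these markers Fabp7 had a log2 fold change of −1.13 (SE 0.39), Cdh19 one of −0.58 (SE 0.27) and the neural crest factor Sox10 one of −0.43 (SE 0.24). Their summed level was 157 to 185 CPM in NeMO and 172 to 202 CPM in Sham. No defining marker of either list was at 0, and the part of these cells in the Itga6 difference was not tested.

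Of the 10 fibroblast markers 7 were higher and 3 lower, the median log2 fold change being 0.21. At an unadjusted p under 0.05, 2 were lower, beside 9.14% of all genes. Log2 fold changes were −0.38 (SE 0.12) for Fbln1, −0.38 (SE 0.13) for Dpt and 0.40 (SE 0.21) for Lum. Lum was at 0.18 without NeMO replicate 3. DESeq2 called Fbln1 lower, as did edgeR without NeMO replicate 1 (−0.50, adjusted p = 0.0413). Smooth muscle markers were 4 higher and 6 lower, the median log2 fold change being −0.03 (0 at an unadjusted p under 0.05), and their summed level was 32507 to 60972 CPM in NeMO and 40306 to 51914 CPM in Sham. In log2 fold change Myh11 stood at 0.06 (SE 0.25), Myocd at 0.37 (SE 0.21), Mylk at −0.36 (SE 0.23) and Synpo2 at 0.22 (SE 0.20). Without NeMO replicate 1 Myh11 was at −0.29, Synpo2 at −0.10 and Mylk at −0.71 (edgeR adjusted p = 0.0450). NeMO replicate 1, the NeMO library with the lowest Col17a1, had the highest smooth muscle sum, and NeMO replicate 3 the lowest. The part of tissue makeup in the members' differences was not tested.

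Mesothelial markers, which share keratins with the urothelium, were 3 higher and 7 lower, the median log2 fold change being −0.29. At an unadjusted p under 0.05, 3 were lower (Upk3b, Krt8 and Krt18), beside 9.14% of all genes. These 3 and Krt19 are also on the urothelial list. Of the others, Lrrn4, Wt1 and Bnc1 were higher and Msln, Muc16 and Rspo1 lower. Sham replicate 2 had the most Msln, at 111 CPM against 13.9 to 36.2 CPM in the other libraries. Its Muc16 was 10.2 CPM against 1.30 to 3.29 CPM elsewhere. Log2 fold changes were −0.56 (SE 0.14) for Upk3b, −0.33 (SE 0.11) for Krt8 and −0.30 (SE 0.11) for Krt18. Of 9 prostate and seminal vesicle markers in the files, 5 had 0 reads in every library and the sum never exceeded 0.796 CPM. The 1 that could be tested, Tgm4, had a log2 fold change of −0.32 (SE 0.50). Sex is not given in the labels, and the part of those glands in the basal genes was not tested. Uroplakin and smooth muscle transcripts, which mark bladder, were abundant in all 8 libraries.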

How the data were processed

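PolyA RNA of whole bladder (4 NeMO and 4 Sham libraries) was sequenced as single-end reads from a directional kit, per the labels' protocols. The authors deposited raw counts per gene symbol, 1 file per library. Trimmomatic, STAR, featureCounts, DESeq2 and the build mm10 are named in the submitters' processing notes. Annotation, strand setting and handling of multi-mapping reads: not given in the sources used here. Batch comes from a mark in the submitted file names, whose meaning is not given.

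Tests ran in R 4.3.3: edgeR 4.0.16 (filterByExpr on group, minimum count 10 and total 15; TMM; robust quasi-likelihood test with batch and group), limma 3.58.1 and DESeq2 1.42.0. SE is the log2 fold change divided by the root of F. The biological coefficient of variation was 0.186, and at 27212499 to 36375313 counts per library Krt14 (from 20 reads) is the least precise member. Ratios used counts plus 0.5. The fit and the permutation routine were tested on simulated data. Every pair of libraries of a group differed by more than sampling noise. GENCODE M21 matched 35656 symbols directly and 1754 through RefSeq synonyms. The length and GC correction removed splines (4 degrees of freedom each).

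The members and 13 marker lists were chosen with earlier results of these data known. Named genes are the members, 10 fixed genes, up to 3 of each list by smallest p, and the 6 nearest to the members' profile. Spink1, a listed marker, was not analysed here, and 2 other listed genes are not reported here and were left out of the lists' counts. Alternatives were each library left out, DESeq2, its size factors, no filter, no batch term, a replicate block, each batch alone, and the length and GC correction.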

Additional observations from a re-analysis of the deposited data

Results flagged for a closer look

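In groups of 4, a library was set aside for a closer look where its gap to the nearest other library took up more of the group's range than Dixon's 95% critical value allows. Chance gives about 1 such case in 20 groups, and 6 were found in 124 groups. Among the members, Trp63 in Sham replicate 1 was low at 182 CPM, against 212 to 218 CPM in the other Sham libraries. Itga6 in NeMO replicate 3 was high at 157 CPM, against 116 to 123 CPM in the other NeMO libraries. Among the other named genes, Myh11 was high in Sham replicate 3 at 14546 CPM, Cldn7 in Sham replicate 4 at 86.1 CPM, Cdh19 in Sham replicate 3 at 14.0 CPM and Lxn in Sham replicate 2 at 19.2 CPM.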

How the results depend on the processing

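No member passed edgeR's test with all 8 libraries, while DESeq2 called 2. When 1 library was left out, 0 to 3 members passed, the 3 being Col17a1, Itga6 and Lama3 without NeMO replicate 1. All other settings gave 0. The number of genes past the threshold was 12 with all libraries and 0 to 652 when 1 library was left out (652 without NeMO replicate 1, 50 without NeMO replicate 2, 7 without NeMO replicate 3, 3 without Sham replicate 1, 4 without Sham replicate 2, and 0 without NeMO replicate 4 or Sham replicate 4). It was 953 with DESeq2, 172 without the filter, 7 without the batch term, 0 in batch 1 alone and 7 in batch 2 alone, where the lone Sham library is assumed to vary like the NeMO libraries. At an unadjusted p under 0.05 the fits with 0 had 2549 (without NeMO replicate 4), 1656 (without Sham replicate 4) and 1756 (batch 1 alone) genes. The cause of these changes was not tested.

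With the replicate number as a block beside batch, 2 genes and 0 members passed. The labels tie same-numbered NeMO and Sham libraries by the number only (correlations of their deviations −0.0096, 0.082, 0.044 and 0.324). Of the NeMO libraries, 2 correlated best with the Sham library of the same number and 2 with that of another. Batch was not removed from these deviations, and whether the libraries are paired was not tested. Under the block Krt5 was at 0.023, Cd151 at 0.10 and Myh11 at −0.024.

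No ratio passed under any alternative. With all libraries a single separated ratio could not pass after adjustment. In batch 1 alone and under the replicate block none could, since the smallest possible p is above 0.05. Some values changed sign. With 1 library left out the log2 fold change ran from −0.25 to 0.045 for Krt5, −0.12 to 1.07 for Krt14, −0.0043 to 0.17 for Itgb4, −0.059 to 0.22 for Plec, −0.15 to 0.011 for Cd151, −0.087 to 0.034 for Cdh1, −0.13 to 0.17 for Pecam1, −0.29 to 0.31 for Myh11, −0.10 to 0.43 for Synpo2 and −0.79 to 0.088 for Tgm4. The log2 ratio difference ran from −0.20 to 0.031 for Krt5 to Cdh1 and from −0.015 to 0.17 for Itgb4 to Cdh1. In batch 1 alone Krt5 to Cdh1 was 0.12 and Krt5 0.018. In batch 2 alone Plec was −0.15, Cdh1 0.11, Pecam1 −0.22, Flt1 −0.010 and Cdh5 −0.086. Without the batch term Cdh1 was 0.054 and Pecam1 −0.0015. With the length and GC correction Krt5 was 0.045, Trp63 −0.025, Plec −0.058, Cd151 0.063, Myh11 −0.0082 and Gfpt1 −0.015. Col17a1, Itga6, Lama3, Krt15 and Lamb3 stayed above 0 in every setting run. Krt14 had the fewest reads of the members (20 to 224 per library) and the largest SE, and the part of depth in its spread was not tested.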
